A study of Mus musculus with 2 samples.

Results

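Patrolling monocytes are the nonclassical blood monocytes that crawl along the inner wall of small vessels. In mice they arise mostly from classical Ly6C-high monocytes, and they depend on the orphan nuclear receptor encoded by Nr4a1. They carry much of the fractalkine receptor Cx3cr1 and little Ccr2, the chemokine receptor by which classical monocytes leave the marrow and enter tumors. The patrolling-type cells described here were chosen from single-cell profiles of whole mouse pancreatic tumors. A cell was taken if lysozyme (Lyz2), the general myeloid gene, had a value above 0.5, if at least 2 of Ace, Nr4a1 and Tppp3 were above 1, and if fewer than 2 of the macrophage complement genes C1qa, C1qb and C1qc were above 1. Values are the deposited scaled scores, whose unit is a gene's SD across the cells of both libraries, counted from its lowest score in the fl/fl library (its zero level). The rule found 223 of 9773 cells, 117 of them in the Ahr cKO library and 106 in the Ahr fl/fl library.

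The tumors grew for 14 days from cells of MT4, an organoid line of the KPC model of pancreatic adenocarcinoma, placed in the pancreas of C57/BL6 mice. Tumors of 3 mice with floxed Ahr alleles and LysM-CRE (Ahr cKO) were pooled into 1 library of 4577 cells, and tumors of 3 mice with the floxed alleles without the Cre (Ahr fl/fl) into another of 5196 cells. Live cells were sorted with DAPI before capture, with no gate on cell type. Ahr encodes the ligand-activated aryl hydrocarbon receptor, and LysM-Cre acts mainly in macrophages, neutrophils and a varying share of monocytes, so deletion in each patrolling-type cell is not given. The depth in molecules is unknown. The fl/fl patrolling-type cells had a median of 151.5 of the 2000 deposited genes above zero, against 108 over all fl/fl cells. Each genotype had a single library of pooled tumors, so nothing was tested, differences lack a replicate check, and intervals are exact (Clopper-Pearson) and cover counting error only.

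Most patrolling-type cells shared their cell barcode with a cell of the other library. In all, 656 barcodes of 16 bases stood in both libraries, or 14.3% of cKO and 12.6% of fl/fl cells. Among patrolling-type cells they made up 85 of 117 in the cKO library (72.6%, 95% interval 63.6% to 80.5%) and 86 of 106 in the fl/fl library (81.1%, 72.4% to 88.1%). The share was 66.7% of cKO and 57.6% of fl/fl cells of the classical monocyte gate defined below. It was 21.3% and 12.7% of C1q macrophages, 4.56% and 2.79% of neutrophils, and 0.984% and 1.13% of T cells. The sharing was therefore concentrated in the monocytes and far from even over cell types.

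**Figure D1:**
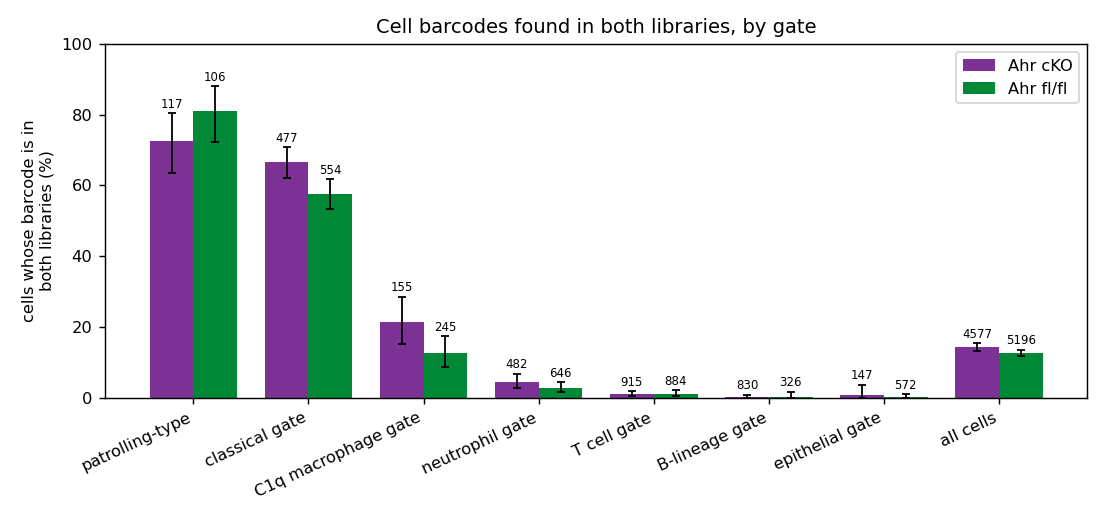
Percent of cells (vertical axis) whose barcode stood in both libraries, for each gate, with Ahr cKO in purple and Ahr fl/fl in green; bars are shares, whiskers exact 95% intervals, and numbers above them the cells of the gate. Patrolling-type cells stand at 72.6% (cKO) and 81.1% (fl/fl), and T, B-lineage and epithelial cells at or below 1.13%.

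The cells behind a shared barcode were also alike in their values. Over the 2000 genes, a fl/fl patrolling-type cell and the cKO cell of the same barcode had a median Pearson correlation of 0.404, against 0.0761 with cKO cells of other shared barcodes. For 64 of the 86 fl/fl patrolling-type cells (74.4%) the same-barcode cell was the most alike of all 4577 cKO cells, and for 78 it was among the 10 most alike. On the deposited map of the cells (UMAP) these pairs lay a median of 0.261 units apart, against 2.25 units for other shared barcodes. The pairs did not hold identical values. Of these 86 cells, 42 had a partner inside the patrolling-type gate, 35 a partner in the classical gate, 8 among other Lyz2-positive cells and 1 among C1q macrophages. A marker above 1 in the fl/fl cell was again above 1 in its cKO partner for Lyz2 in 80 of 82 cells, for Ace in 22 of 40, for Nr4a1 in 43 of 78 and for Tppp3 in 34 of 68. These 4 barcodes, the first in alphabetical order whose cells were patrolling-type in both libraries, are shown as examples, with their values in each library.
barcode A: aaacccatcagctgat
barcode B: aaacgaatcgagaaat
barcode C: aaaggattctgggcac
barcode D: aaccatgagaaacccg
Barcode A had a Tppp3 value of 6.31 in the cKO and 5.75 in the fl/fl library, and a Lyz2 value of 4.11 in the cKO and 4.52 in the fl/fl library. Barcode B had Tppp3 at 8.09 in the cKO and 5.92 in the fl/fl library, and Ace at 2.29 in the cKO and 10.1 in the fl/fl library. Barcode C had Nr4a1 at 7.33 in the cKO and 3.71 in the fl/fl library, with Ace at -0.046 in the cKO and at zero in the fl/fl library. Barcode D had Nr4a1 at 5.27 in the cKO and 4.69 in the fl/fl library, but Ace at 8.10 in the cKO library and zero in the fl/fl library. Why these barcodes occur in both libraries was not tested. The main comparisons are therefore given over all cells and also over the single-library cells, those whose barcode stood in 1 library, of which 32 were patrolling-type in the cKO and 20 in the fl/fl library.

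**Figure D2:**
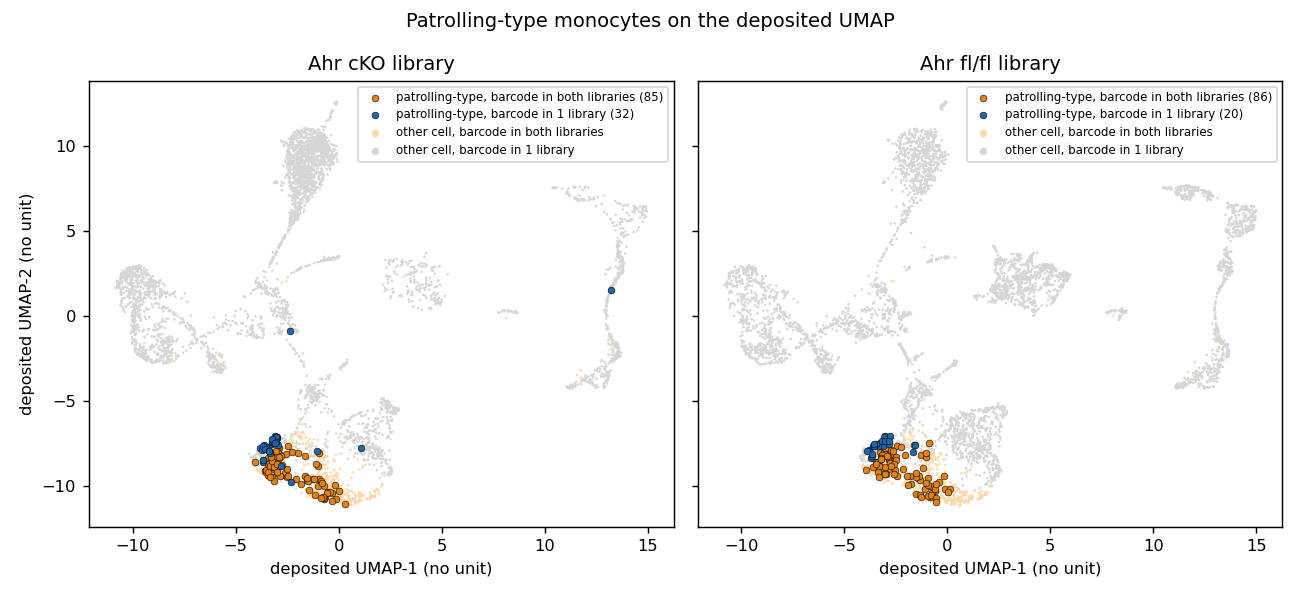
Deposited UMAP coordinates (both axes, no unit) of all cells, with the Ahr cKO library on the left and the Ahr fl/fl library on the right; patrolling-type cells are orange where their barcode was in both libraries and blue where it was in 1. The blue cells gather near -7.6 on UMAP-2, at the edge of the area of pale orange shared barcodes, apart from 3 cKO cells that lie elsewhere.

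Shared-barcode and single-library patrolling-type cells held different places on the map. The median UMAP-2 position was -9.11 for shared-barcode and -7.59 for single-library cells of the cKO library. In the fl/fl library it was -8.99 for shared-barcode and -7.60 for single-library cells. Among the 30 nearest cells of a shared-barcode patrolling-type cell, a median of 93.3% also had a shared barcode in either library, against 11.7% around single-library cells of the cKO and 6.67% around those of the fl/fl library. Of the 32 single-library cKO cells, 3 lay apart from the monocytes' part of the map, and none of the 20 fl/fl cells did.

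The genes of the rule themselves, given as a description since they chose the cells, differed in how often they carried the choice. Nr4a1 was above 1 in 102 of 117 cKO and 93 of 106 fl/fl cells, and its value averaged 2.92 ± 2.37 in cKO and 2.62 ± 1.86 in fl/fl cells (SD over cells). Tppp3, which encodes a tubulin-binding protein, was above 1 in 86 cKO and 83 fl/fl cells. Ace, the cell-surface peptidase that converts angiotensin, was above 1 in 69 cKO and 53 fl/fl cells. Its values reached from -1.06 to 10.1 with a median of 1.97 in cKO cells, and from zero to 10.1 with a median of 0.527 in fl/fl cells. Deposited scores end at 10, so this top value of Ace is a ceiling, and several cells of each library stood at it. Nr4a1 with Tppp3 but without Ace was the most frequent combination, in 48 cKO (41.0%) and 53 fl/fl cells, and all 3 markers were above 1 in 23 cKO and 17 fl/fl cells. In several fl/fl cells of this Ace-free combination Nr4a1 and Tppp3 stood in the same proportion, as at 1.32 and 1.56, 2.02 and 2.38, and 3.06 and 3.61. How many molecules lay behind such values is unknown, and whether they rest on low detection was not tested. The genes lie on chromosomes 11 (Ace, positions 105967945 to 105989964, plus strand), 15 (Nr4a1, 101254269 to 101274795, plus strand) and 8 (Tppp3, 105467493 to 105471526, minus strand) of GRCm38. At the edge of the rule, the second highest of the 3 markers had its lowest values inside at 1.01 in cKO and 1.00 in fl/fl cells, and its highest values outside at 0.996 in cKO and 0.999 in fl/fl cells. Another 238 cKO and 282 fl/fl cells with enough Lyz2 and few C1q genes had just 1 marker above 1.

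The label could be checked with other patrolling monocyte genes, which the rule did not use. Of 29 such genes listed from general knowledge, 14 were among the 2000 deposited. A median of 2 of the 14 in cKO and 3 in fl/fl patrolling-type cells were above 1, and at least 3 were above 1 in 48.7% of cKO (39.4% to 58.1%) and 54.7% of fl/fl cells (44.8% to 64.4%). Among shared-barcode patrolling-type cells, the majority, this was 34 of 85 in the cKO (29.5% to 51.2%) and 42 of 86 in the fl/fl library (37.9% to 59.9%). Among single-library patrolling-type cells it was 23 of 32 in the cKO (71.9%, 53.3% to 86.3%) and 16 of 20 in the fl/fl library (80.0%, 56.3% to 94.3%). In the classical gate it was 17.2% of cKO and 21.1% of fl/fl cells, and in C1q macrophages 36.8% (29.2% to 44.9%) and 26.1% (20.7% to 32.1%). In T cells, taken as a background, it was 1 of 915 cKO and 0 of 884 fl/fl cells (upper exact bound 0.416%). Single genes of the list, such as Cx3cr1, were still above 1 in some T cells. The fl/fl T cells had a median of 106 genes above zero, against 151.5 in fl/fl patrolling-type cells. The label thus held as a tendency of the cells and not for each of them, and by this count the shared-barcode cKO cells had a share within the interval of the cKO C1q macrophages.

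Markers of other cell types were mostly near zero in patrolling-type cells. Of 15 T and NK genes, 10 were at zero in all 106 fl/fl cells, and all 6 measured fibroblast genes were. At least 2 neutrophil markers of 13 were above 1 in 4 cKO and 3 fl/fl cells, and at least 2 markers of T, B, epithelial or endothelial cells in 1 cKO and 0 fl/fl cells. Only 3 of 14 endothelial genes were measured. Of these, Egfl7 and Ramp2 were at zero in every fl/fl patrolling-type cell, and Flt1, a receptor for vascular growth factors that monocytes also use, averaged 0.378 in cKO and 0.234 in fl/fl cells.

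Patrolling-type cells were next set against classical monocytes of the same library. The classical gate held cells with Lyz2 above 0.5, at least 2 of 10 measured classical genes above 1, fewer than 2 patrolling markers, fewer than 2 C1q genes and fewer than 2 neutrophil markers above 1, or 477 cKO and 554 fl/fl cells. Genes are called higher or lower where the mean values were at least 0.25 apart. Ear2, Cx3cr1, Clec4a3, Eno3 and Ceacam1 were higher in patrolling-type cells in both libraries, with and without shared barcodes. Of the 14 patrolling genes, 9 were higher and 0 lower in the cKO library, where 1.75% of all 2000 genes were higher, and 5 were higher and 0 lower in the fl/fl library, where 1.45% of all genes were. Over single-library cells the counts were 11 of 14 in the cKO and 8 of 14 in the fl/fl library, against 3.65% of all genes in each. The median difference of the list was 0.38 in cKO and 0.14 in fl/fl cells over all barcodes, and 0.72 and 0.35 over single-library cells, against medians over all genes between -0.0221 and -0.0070. The list was drawn up for the same monocyte type as the rule's genes.

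Ear2, which encodes an eosinophil-associated ribonuclease, showed the widest gap of the list. Its mean was 1.69 ± 2.88 in patrolling-type and 0.444 ± 1.65 in classical cells of the cKO library, and 1.43 ± 2.76 in patrolling-type and 0.446 ± 1.63 in classical cells of the fl/fl library (SD over cells). It was above 1 in 34.2% of patrolling-type and 9.02% of classical cKO cells, and in 26.4% of patrolling-type and 9.21% of classical fl/fl cells, so that most patrolling-type cells did not carry it. In T cells, as the background, 0 of 915 cKO and 4 of 884 fl/fl cells had it above 1. Cx3cr1 averaged 1.23 ± 1.92 in patrolling-type and 0.381 ± 1.15 in classical cKO cells, and 1.27 ± 1.82 in patrolling-type and 0.389 ± 1.13 in classical fl/fl cells. It was above 1 in 32.5% of cKO and 37.7% of fl/fl patrolling-type cells, against 6.01% of cKO and 6.56% of fl/fl T cells. Over single-library cells Ear2 averaged 2.34 ± 3.00 in patrolling-type and 0.337 ± 1.31 in classical cKO cells, and 1.76 ± 3.41 and 0.276 ± 1.24 in the same gates of the fl/fl library. Cx3cr1 averaged 1.61 ± 2.08 in patrolling-type and 0.430 ± 1.17 in classical cKO single-library cells, and 1.61 ± 1.52 and 0.337 ± 1.01 in fl/fl ones. The groups overlapped in every one of these comparisons.

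Clec4a1 and Clec4a3, which encode C-type lectins of the DCIR family, depended differently on the shared barcodes. Clec4a3 was 0.92 higher in cKO and 0.64 higher in fl/fl patrolling-type cells than in classical cells, and 1.67 and 0.66 higher over single-library cells. Clec4a1 was 0.42 higher in cKO and 0.12 higher in fl/fl patrolling-type cells, but 1.34 and 1.18 higher over single-library cells. In those single-library cells Clec4a1 was above 1 in 22 of 32 cKO and 17 of 20 fl/fl patrolling-type cells, against 37.7% of cKO and 31.9% of fl/fl classical cells. Eno3, the muscle-type enolase, was 0.73 higher in cKO and 0.61 higher in fl/fl cells, and 1.61 and 0.30 higher over single-library cells. Ceacam1, an adhesion molecule, was 0.74 higher in cKO and 0.40 higher in fl/fl cells, and 0.86 and 0.72 higher over single-library cells. Fabp4, a fatty acid carrier, was higher by 0.40 in cKO and 0.16 in fl/fl cells, and by 1.31 and 0.45 over single-library cells. It was above zero in just 6.60% of fl/fl patrolling-type and 3.25% of fl/fl classical cells, so that few cells set its fl/fl means. The Wnt transcription factor gene Tcf7l2 passed 0.25 only over single-library cells, at 0.38 in cKO and 0.39 in fl/fl cells. The list members Cd274 (PD-L1) and Fcgr4 (Fc receptor IV) stayed within 0.25 in both libraries, with and without shared barcodes.

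**Figure D3:**
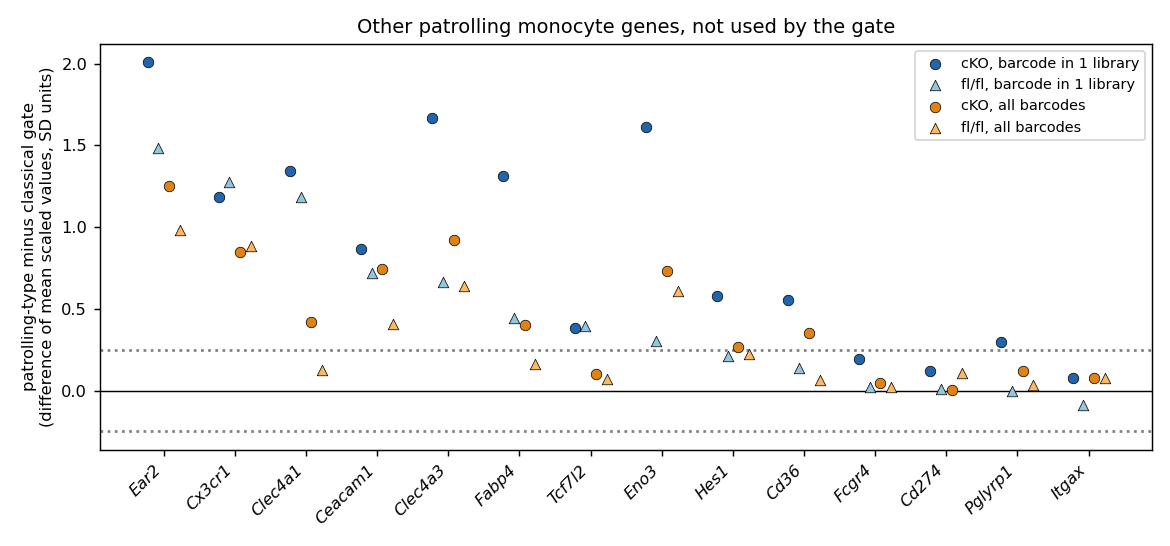
Difference of mean scaled values, patrolling-type minus classical gate (vertical axis, in SDs of the gene), for the 14 measured patrolling genes outside the rule (horizontal axis); circles are the Ahr cKO and triangles the Ahr fl/fl library, blue for single-library cells and orange for all barcodes, with dotted lines at 0.25 and -0.25. Ear2, Cx3cr1 and Clec4a1 exceed 1 in single-library cells of both libraries, and Clec4a1 drops to 0.42 (cKO) and 0.12 (fl/fl) over all barcodes.

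Genes outside the list also differed in mean between the gates. Hpgd, the enzyme that degrades prostaglandins, was 0.88 higher in cKO and 0.57 higher in fl/fl patrolling-type than classical cells, and 2.03 and 1.29 higher over single-library cells. Just 13.2% of fl/fl patrolling-type and 3.97% of fl/fl classical cells had Hpgd above zero, so that few cells set its fl/fl means. Grk3, a kinase of G protein-coupled receptors, was 0.81 higher in cKO and 0.68 higher in fl/fl cells, and 1.08 and 1.79 higher over single-library cells. Cbfa2t3, a transcriptional corepressor, was 0.54 higher in cKO and 0.34 higher in fl/fl cells, and 1.04 and 1.14 higher over single-library cells. Hfe, a regulator of iron uptake, was 0.42 higher in cKO and 0.25 higher in fl/fl cells, and 0.86 and 0.71 higher over single-library cells. Plac8 was counted among the classical genes but was higher in patrolling-type cells, by 0.47 in cKO and 0.45 in fl/fl cells, and by 1.04 and 1.27 over single-library cells. Ccdc88a, an actin-binding protein, was higher by 0.55 in cKO and 0.41 in fl/fl cells, and by 0.67 and 1.00 over single-library cells. The transcription factor gene Klf4 was higher by 0.46 in cKO and 0.71 in fl/fl cells, and by 0.49 and 0.38 over single-library cells. Over single-library cells, 73 of all 2000 genes were higher in the cKO and 73 in the fl/fl library (3.65% each). Of these, 34, or 46.6% of each list, were the same. The counts include Ace, Nr4a1 and Tppp3, which the rule set high in both libraries, and genes of the patrolling list. The overlap without them is not given.

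The classical genes, which chose the comparison cells and so are described only, were lower in patrolling-type cells for Ccr2, Ly6c2 and F13a1. Ccr2 differed by -0.66 in cKO and -0.51 in fl/fl cells, Ly6c2 by -0.47 and -0.50, and F13a1, a coagulation factor, by -0.83 and -0.46. The remaining Ccr2 was not small in single-library patrolling-type cells: it was above 1 in 18 of 32 cKO (56.3%) and 15 of 20 fl/fl cells. Outside the gates, Ctsc (cathepsin C) differed by -0.39 in cKO and -0.47 in fl/fl cells, Msr1 (a scavenger receptor) by -0.41 and -0.33, and Lgals1 (galectin-1) by -0.33 and -0.26. These 3 were also lower over single-library cells, with differences between -0.74 and -0.33.

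Cell cycle genes were lower than in the classical gate over single-library cells alone, and MHC class II genes mostly there. Of 15 cell cycle genes 0 were lower over all barcodes in either library, where 2.05% of all genes in the cKO and 1.1% in the fl/fl library were lower. Over single-library cells 7 of 15 were lower in the cKO and 8 of 15 in the fl/fl library, against 5.3% and 4.45% of all genes, with medians of -0.23 and -0.26. Birc5 differed by -0.54 in cKO and -0.32 in fl/fl single-library cells. It averaged 0.076 in cKO and 0.030 in fl/fl single-library patrolling-type cells, against 0.619 and 0.354 in single-library classical cells. In shared-barcode cells of both gates it averaged 0.005 or less. The Birc5 gap thus lay in the level of the single-library classical cells. Tubb5 averaged 0.298 and 0.286 in single-library patrolling-type cells, against 0.628 and 0.609 in classical ones. Of 5 MHC class II genes, 4 were lower in the cKO and 2 in the fl/fl library over single-library cells, and H2-DMb1 differed by -0.45 and -0.38. Genes of other myeloid lists moved little: of 14 macrophage genes 0 passed 0.25 in either direction over all barcodes in both libraries. Over single-library cells 0 were higher, and 1 was lower in the cKO and 2 in the fl/fl library, with Arg1 (arginase 1) at -0.56 and -0.47. Classical cells averaged 0.655 in the cKO and 0.476 in the fl/fl library for Arg1 over single-library cells, and 0.103 and 0.087 over shared-barcode cells. Of 13 neutrophil genes 0 passed with or without shared barcodes. The classical gate, however, allowed fewer than 2 of these neutrophil genes above 1. Both gates also allowed fewer than 2 of C1qa, C1qb and C1qc above 1, and these are among the macrophage genes. The neutrophil and macrophage counts were thus partly set by the gates and are described only.

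Within the patrolling-type cells, those with Ace above 1 carried more of the other patrolling genes than those without it, a split chosen after the values were seen. Of the 14 patrolling genes, 11 were higher and 0 lower with Ace in the cKO library, where 3.65% of all 2000 genes were higher, and 8 were higher and 0 lower in the fl/fl library, where 2.45% were. Over single-library cells 13 were higher and 1, Tcf7l2, was lower in the cKO library (6.35% of all genes higher), and 10 were higher and 0 lower in the fl/fl library (5.6%). Over shared-barcode cells the counts were 5 higher in the cKO (3.7% of all genes) and 9 higher with 1, Cx3cr1, lower in the fl/fl library (3.45%). Ear2 averaged 2.66 ± 3.38 in cells with Ace and 0.30 ± 0.763 in cells without it in the cKO library, and 1.99 ± 3.22 and 0.862 ± 2.08 in the fl/fl library. Hpgd averaged 1.66 ± 3.07 with Ace and 0.334 ± 1.11 without it in the cKO library, and 1.46 ± 3.21 and 0.190 ± 1.06 in the fl/fl library.

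Among single-library cells the same split was wider. Ear2 averaged 3.39 with Ace (21 cells) and 0.351 without it (11 cells) in the cKO library, and 2.63 (13 cells) and 0.143 (7 cells) in the fl/fl library. Hpgd was at zero in all 7 fl/fl single-library cells without Ace, and Fabp4, Cd36 and Hes1 also averaged 0.000 there. In the 13 with Ace, Hpgd averaged 2.42 ± 4.04, Fabp4 0.777 ± 2.80, Cd36 0.308 ± 1.11 and Hes1 0.555 ± 1.38. These SDs exceeded the means, so a few cells could set them. Fabp4, Cd36 and Hes1 stand among the higher patrolling genes counted above for this split. Most classical genes ran the other way. Of 10 measured, 7 were lower and 2 higher with Ace in the cKO library (3.7% of all genes lower), and 4 were lower and 1 higher in the fl/fl library (1.75%). Over single-library cells 7 were lower and 2 higher in the cKO (7.2%) and 8 lower and 2 higher in the fl/fl library (5.35%). The higher ones were Plac8, with 0.47 in cKO and 0.17 in fl/fl cells over all barcodes and 0.85 and 0.48 over single-library cells, and Ly6i, with 0.31 and 0.32 over all and 1.08 and 0.98 over single-library cells. F13a1 differed, with Ace minus without, by -0.77 in cKO and -0.71 in fl/fl cells over all barcodes and by -0.66 and -1.26 over single-library cells. Ly6c2 differed by -0.27 in cKO and -0.74 in fl/fl cells over all barcodes, and by -0.33 and -1.27 over single-library cells. The cells chosen through Nr4a1 and Tppp3 alone thus carried more F13a1 and Ly6c2. Cx3cr1 differed by 0.31 in cKO and -0.18 in fl/fl cells over all barcodes, and by 1.31 and 0.47 over single-library cells.

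**Figure D4:**
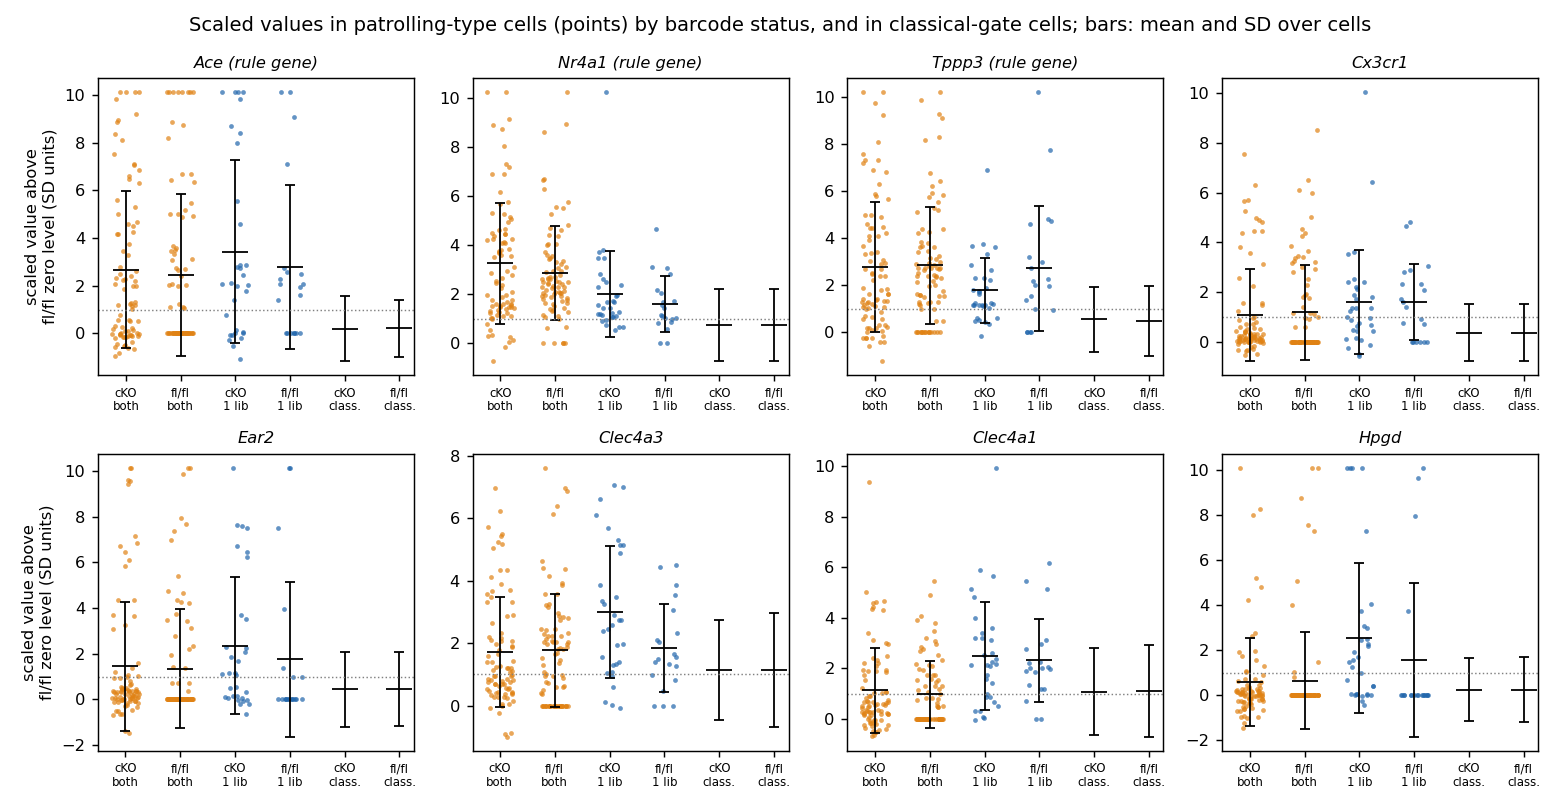
Scaled values above the fl/fl zero level (vertical axes, SD units) of 8 genes in patrolling-type cells (points, orange for shared-barcode and blue for single-library cells, Ahr cKO left of Ahr fl/fl) and in classical-gate cells, where the mean and SD alone are drawn; bars are means and SDs over cells and the dotted line marks 1. Clec4a1 and Hpgd average lower in the orange than in the blue cells of both libraries, and Nr4a1 higher.

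Shared-barcode and single-library patrolling-type cells differed in stimulus-responsive and in patrolling genes. Atf3, a stress-induced transcription factor, averaged 1.67 ± 1.72 in shared-barcode and 0.130 ± 0.175 in single-library cells of the cKO library, and 1.51 ± 1.51 and 0.170 ± 0.326 in the fl/fl library. It was above 1 in 46 of 85 shared-barcode and 0 of 32 single-library cKO cells (upper exact bound 10.9%), and in 50 of 86 and 1 of 20 fl/fl cells. Of 14 measured immediate early and stress genes, 9 were higher and 1 lower in shared-barcode cells of the cKO library, where 5.1% of all 2000 genes were higher. In the fl/fl library 6 were higher and 1 lower, and 4.2% of all genes were higher. Cd14, the endotoxin co-receptor, differed by 1.31 in cKO and 1.07 in fl/fl cells, Nr4a2 by 0.87 and 0.75 and Klf4 by 0.79 and 0.96. The rule genes Nr4a1 (1.24 in cKO, 1.25 in fl/fl cells) and Lyz2 (0.95 and 1.16) also differed, which bears on the choice of the cells. In shared-barcode classical cells Nr4a1 averaged 0.941 in cKO and 1.041 in fl/fl, near the rule's threshold of 1. Single-library classical cells had 0.367 and 0.310. Nr4a1 and Tppp3 without Ace chose 43.5% of cKO and 53.5% of fl/fl shared-barcode patrolling-type cells, against 34.4% and 35.0% of single-library ones. Whether a raised Nr4a1 brought such cells into the rule was not tested.

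Of the other patrolling genes several were lower, with 9 of 14 lower and 0 higher in shared-barcode cells of the cKO library (5.2% of all genes lower) and 5 lower and 1 higher in the fl/fl library (4.55%). Clec4a1 differed by -1.36 in cKO and -1.34 in fl/fl cells, Cx3cr1 by -0.52 and -0.42, Ear2 by -0.89 and -0.41 and Tcf7l2 by -0.46 and -0.46, while Eno3 differed by -1.22 in cKO and 0.38 in fl/fl cells. Outside that list, Hpgd differed by -1.94 in cKO and -0.92 in fl/fl cells, the classical genes Plac8 by -1.18 and -1.47 and Ccr2 by -1.18 and -1.17, and Cbfa2t3 by -0.85 and -1.15. In the classical gate the stimulus-responsive genes differed in the same direction, with 7 of 14 higher and 0 lower in shared-barcode cells of the cKO (4.4% of all genes higher) and 8 higher and 0 lower in the fl/fl library (3.8%). There Atf3 was higher in shared-barcode than single-library cells by 1.31 in cKO and 1.30 in fl/fl cells, Cd14 by 1.61 and 1.58 and Nr4a1 by 0.57 and 0.73, and Ccr2 differed by -1.07 and -1.25. Of the 14 patrolling genes 1 was higher and 2 were lower in shared-barcode cells of the classical gate in the cKO (5% of all genes lower), with a median of -0.03, and 1 was higher and 0 lower in the fl/fl library (2.95%), with a median of 0.02. These were Cd36 (0.36), Clec4a3 (-0.28) and Fcgr4 (-0.28) in the cKO and Ear2 (0.30) in the fl/fl library, and Clec4a1 differed by -0.10 and -0.05. Fl/fl shared-barcode patrolling-type cells had a median of 134 genes above zero, against 234.5 in single-library cells, and the part of this gap in the values was not tested.

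The share of patrolling-type cells was 2.56% of cKO (2.12% to 3.06%) and 2.04% of fl/fl cells (1.67% to 2.46%), with overlapping intervals. Without shared barcodes it was 32 of 3921 cKO (0.816%, 0.559% to 1.15%) and 20 of 4540 fl/fl cells (0.441%, 0.269% to 0.680%). Of cells with Lyz2 above 0.5 and few C1q genes, they were 12.5% of 935 cKO and 9.52% of 1113 fl/fl cells, and without shared barcodes 7.60% of 421 cKO (5.26% to 10.6%) and 3.34% of 598 fl/fl cells (2.05% to 5.12%). This was the only denominator of the 4 on which the intervals did not overlap. Among shared barcodes 85 of 656 cKO and 86 of 656 fl/fl cells met the rule. The gate reads cKO values that appear to have been moved by a correction toward the fl/fl library: in the fl/fl library a gene had a median of 96.0% of cells at its zero level, while in the cKO library 55.8% of cells were there and 15.2% below it. When the level around each cKO cell was first removed, 1.73% of cKO cells met the rule, below the fl/fl share. The capture of pooled tumors and the genotype cannot be told apart in these shares.

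Ahr itself (chromosome 12, positions 35497974 to 35535038, minus strand) gave no check of the genotype in these cells. It was above zero in 28 of 106 fl/fl patrolling-type cells (26.4%, 18.3% to 35.9%). Its mean was 0.416 ± 0.908 in cKO and 0.428 ± 0.879 in fl/fl cells over all barcodes, and 0.237 ± 0.649 and 0.169 ± 0.419 over single-library cells. The labels do not name the deleted exon, and reads from elsewhere in the transcript would not show the deletion. Of 9 listed AHR-induced genes 2 were measured, Cyp1b1 and Scin, and both were at zero in practice, with differences from fl/fl cells that round to 0.00.

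Between genotypes, few genes differed in patrolling-type cells over all barcodes. Of 514 genes that at least 10% of fl/fl patrolling-type cells had above zero, 14 were higher in cKO cells (2.72%) and 3 were lower (0.584%). Most of these cells, 85 of 117 cKO and 86 of 106 fl/fl, had a shared barcode, and same-barcode cells were alike. The count over all barcodes alone thus says little about the genotype. Over the 32 cKO and 20 fl/fl single-library cells, 34 genes were higher and 34 lower (6.61% each). For shared-barcode cells 15 were higher (2.92%) and 9 lower (1.75%). Over all barcodes the highest differences were Ptgr1 (0.40), a reductase of prostaglandin and leukotriene metabolism, Ace (0.37), Cd14 (0.36), the kinase gene Sgk1 (0.34) and Nr4a1 (0.30). The lowest were H2-DMb1 (-0.32), Tppp3 (-0.32) and the chemokine gene Ccl7 (-0.26). Ace, Nr4a1 and Tppp3 belong to the rule. Ptgr1 and Sgk1 rested on the shared barcodes: over single-library cells they differed by -0.05 and -0.09, and over shared-barcode cells, where 42 barcodes stood on both sides, by 0.58 and 0.51. Cd14 differed by 0.28 over single-library and 0.52 over shared-barcode cells. H2-DMb1 and Ccl7 differed by -0.03 and 0.00 over single-library cells.

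The cKO minus fl/fl differences of other patrolling genes were wider where shared barcodes were left out. Of the 14 genes 10 passed the filter of 10% of fl/fl cells. Of these 10, 4 were higher and 0 lower over all barcodes (2.72% of the 514 genes higher), 1 was higher over shared-barcode cells (2.92%), and 5 were higher and 0 lower over the 32 cKO and 20 fl/fl single-library cells (6.61%). The median difference of the 10 genes was 0.15 over all, 0.00 over shared-barcode and 0.24 over single-library cells, against medians of all 514 genes that round to 0.00. Of the 4 that missed the filter, Cd36 differed by 0.34 over all and 0.38 over single-library cells, and Fabp4 by 0.27 and 0.90. Clec4a3 averaged 3.00 ± 2.12 in cKO and 1.84 ± 1.41 in fl/fl single-library cells, with medians of 2.67 and 1.52. Eno3 averaged 1.77 ± 3.52 in cKO and 0.411 ± 1.60 in fl/fl single-library cells, and was above 1 in 12 of 32 and 2 of 20 cells. Fabp4 averaged 1.40 ± 3.27 in cKO and 0.505 ± 2.26 in fl/fl single-library cells, and Hpgd, outside the list, 2.53 ± 3.32 and 1.57 ± 3.43. Ear2 was above 1 in 18 of 32 cKO (37.7% to 73.6%) and 5 of 20 fl/fl single-library cells (8.66% to 49.1%). Cx3cr1 (0.00) and Clec4a1 (0.17) did not pass 0.25. The SDs over cells exceeded each of these differences.

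Removing the local level of the cKO values reduced several of these differences. With it removed, the single-library difference was 1.35 for Eno3 and 0.93 for Fabp4, which had missed the filter, but 0.20 for Ear2 and 0.36 for Hpgd, and of the 7 patrolling genes that passed the filter and could be estimated 1, Eno3, was higher (5.16% of 368 genes). Clec4a3 was above zero in too many fl/fl cells for the estimate. The remaining values of this paragraph are the deposited ones, without this removal. In the opposite direction, Tmem176b, a membrane protein gene, differed by -0.86 over single-library and -0.23 over all cells, F13a1 by -0.43 and -0.24, and Tppp3 by -0.94 and -0.32. Grk3 changed sign, with 0.25 over all and -0.46 over single-library cells. Of 10 classical genes 5 were lower in cKO single-library cells, where 6.61% of tested genes were lower, and 0 were over all barcodes. In the classical gate 0 of the 14 patrolling genes passed 0.25 between the genotypes, where 0.05% of all 2000 genes were higher and 0.05% lower over all barcodes, and 0.7% were higher and 0.2% lower over single-library cells; the difference between the gates was not tested.

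**Figure D5:**
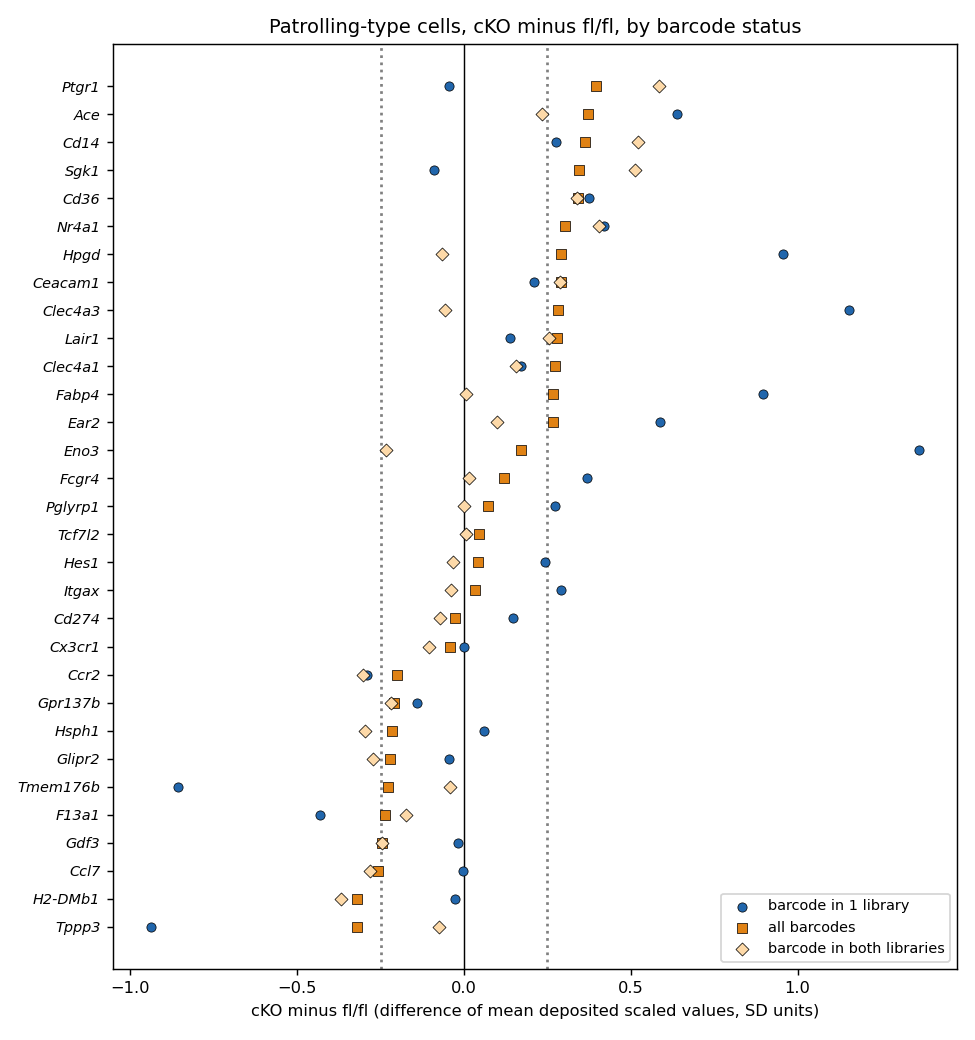
Ahr cKO minus Ahr fl/fl difference of mean deposited values (horizontal axis, SDs of the gene) in patrolling-type cells for the 14 patrolling genes and the genes with the highest and lowest differences (vertical axis), with circles for single-library cells, squares for all barcodes and diamonds for shared barcodes; dotted lines mark 0.25 and -0.25. Eno3 and Clec4a3 reach 1.36 and 1.16 in single-library cells and lie at -0.23 and -0.06 in shared-barcode cells.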

How the data were processed

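Deposited values were UMAP coordinates, a kind of score, and scaled scores for 2000 genes in 9773 cells, the scaled scores lying between -25.91 and exactly 10. Patrolling-type cells stood at this upper end for Ace, Ear2 and Hpgd among others, so the means and SDs of such genes are bounded by it. The submitters' processing notes name Cell Ranger 3.0.0, Seurat 3.1.4 and mm10 (GRCm38), and the step each served is not given. Filters on cells and doublet removal are not given in the sources used here, and no doublet was removed. A correction of cKO values was inferred from the scores and is stated nowhere. The end of a cell's name gave its library and its start the barcode.

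Each value had the gene's minimum over fl/fl cells subtracted. Differences are of means, and a gene counted from 0.25. The local level of a cKO value was the 0.3 quantile over the 30 nearest cKO cells in 30 principal components, for genes that under 40% of fl/fl patrolling-type cells had above zero; the scripts were tested on simulated data. Named genes were the rule's genes, Ahr, the measured patrolling genes, the 15 highest and 10 lowest differences from classical cells in the fl/fl library and the 10 highest and 10 lowest between genotypes (in at least 10% of cells), and up to 4 of each other list. The cells, genes and lists were chosen with earlier results of these data known. The neutrophil limit, the split by barcode and the split by Ace were chosen after seeing the data. Positions are from GENCODE M21. Python 3.11.15, numpy 2.4.6, pandas 2.3.3, scipy 1.17.1 and matplotlib 3.10.9 were used.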

Additional observations from a re-analysis of the deposited data

How the results depend on the processing

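The share of patrolling-type cells moved with the marker threshold, to 4.92% of cKO and 2.77% of fl/fl cells at 0.5, and to 1.70% of cKO cells at 1.5. With all 3 markers it was 0.503% and 0.327%, with Ace and Tppp3 together 0.830% and 0.577%, and of Lyz2-positive C1q-low cells 12.5% and 9.52%. With the local cKO level removed it was 1.73% of cKO cells, which is not comparable with the fl/fl share for the reason given above. Without shared barcodes, an alternative chosen after seeing the data, it was 0.816% and 0.441%.

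Against classical cells, 35 genes were higher and 41 lower in the cKO and 29 and 22 in the fl/fl library. Against all other Lyz2-positive C1q-low cells 66 were lower in the cKO and 51 higher and 65 lower in the fl/fl library, and Ifi204 (0.027, cKO), F13a1 (0.093, fl/fl) and Ccr2 (0.15, fl/fl) changed sign. With Ace and Tppp3 the counts were 63 and 67 in the cKO and 62 and 39 in the fl/fl library, and at a difference of 0.5 they were 12 and 3, and 10 and 2. With comparison cells matched on genes per cell 52 were lower in the fl/fl library. Without the neutrophil limit, also added after seeing the data, 69 were lower in the cKO and 54 higher and 77 lower in the fl/fl library. Without shared barcodes 73 were higher and 106 lower in the cKO and 73 and 89 in the fl/fl library, and Fcgr1 (0.20), Ptgr1 (-0.21) and Fosb (-0.047) in the cKO and Gdf3 (-0.081), Serpinb2 (-0.13) and Spic (-0.018) in the fl/fl library changed sign.

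Between genotypes, 14 genes were higher and 3 lower. The counts were 29 and 28 with Ace and Tppp3, where Ace (-0.98), Nr4a1 (-0.23) and Tppp3 (0.33) changed sign; 25 and 11 at a threshold of 1.5; and 24 and 9 with the cKO gate on values with the local level removed, where Tppp3 (0.19), Grk3 (-0.13) and Hpgd (-0.26) changed sign. Without a filter on low values, so over more genes than the 514 of the main count, 10 were lower. At a difference of 0.5, 0 and 0 were called. The second form of the local level, limited to the genes that could be estimated, gave 4 and 7. Without shared barcodes the counts were 34 and 34, and Grk3 (-0.46), Ptgr1 (-0.046) and Sgk1 (-0.091) changed sign. The causes were not tested. No test and no paired analysis were made, because each genotype had 1 library and the libraries were pools of different mice.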
